A study of Mus musculus with 24 samples.

Results

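RNA of 5 genes for secreted ribonucleases, Rnase12, Rnaset2b, Rnase6, Rnase4 and Ang, was followed across 24 libraries of early lymphoid cells that lacked PLCγ1, PLCγ2, both or neither. The 5 genes were found by their symbols among the 24421 genes of the count files, and all 5 were present and passed the filter on low counts in both populations, Rnase12 and Rnaset2b through the knockout groups in which they were high. They were chosen by the Rnase12 level in knockout against wild-type cells, and Rnaset2b was already known to differ in the same way, so the differences of Rnase12 and Rnaset2b between genotypes are given as a description with no p-value, and calls of these 2 genes are counted once without reading anything from them. Common lymphoid progenitors (CLPs), sorted as donor-derived (CD45.2+), lineage-negative and IL-7R+, were taken along with B cell progenitors, sorted as donor-derived, B220+, IgM- and IL-7R+, from bone marrow of 3 mice of each of 4 genotypes. These were Plcg1+/+Plcg2+/+ (wild type), Plcg1-/-Plcg2+/+, Plcg1+/+Plcg2-/- and Plcg1-/-Plcg2-/-. The Plcg1 allele was floxed and was deleted by Cre under the interferon-inducible Mx promoter after 3 injections of poly(I-C), whereas Plcg2 was absent from the germline. All donors carried the Mx-Cre transgene and YFP, were of a mixed 129xC57BL/6 background and of both sexes, and were 6 to 12 weeks old when injected. Their marrow was taken 3 weeks after the last injection and transplanted into irradiated CD45.1+ hosts, and the cells were sorted 6 to 8 weeks later. The number of donors of each genotype is not given in the sources used here, so n counts recipients, and p-values measure the spread between these libraries. The sample names tie the CLP and the B cell progenitor library of each mouse.

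PLCγ1 and PLCγ2 are phospholipases that cleave a membrane lipid below activated receptors and so start calcium and protein kinase C signalling. Secreted ribonucleases of the RNase A family are small enzymes that cut RNA outside cells or in vesicles, and in the mouse their genes lie in clusters on chromosome 14. RNase 6 and the eosinophil-associated ribonucleases are antimicrobial proteins of blood cells. RNase 4 and angiogenin, the product of Ang, are made from neighbouring coding exons, and angiogenin is known for cutting transfer RNA and for blood vessel growth. RNase 12 belongs to the members of the family that lack conserved residues of the catalytic centre and are best known from the male reproductive tract. RNase T2, the product of Rnaset2b and of its copy Rnaset2a, is an acid ribonuclease of an unrelated fold that is secreted and also degrades RNA in lysosomes.

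In mm10 (GRCm38, RefSeq positions) Rnase12 lies on the minus strand at chr14:51056698-51057242, Rnase4 and Ang share a start on the plus strand at chr14:51091077-51106151 and chr14:51091077-51102009, and Rnase6 follows at chr14:51123908-51132187. Rnaset2b lies on chromosome 17, at chr17:6978860-6998193 on the plus strand. In the GENCODE annotation of the same build the exons of Rnase4 and Ang overlap by 219 bases on 1 strand, which is 13.4% of the exonic bases of Rnase4 and 18.2% of those of Ang, so reads from this stretch cannot be assigned to either gene. No annotated gene overlaps Rnase12. The exons of Rnaset2b overlap by 909 bases on the same strand (20.4%) with those of the GENCODE gene Gm49721, which is not among the genes of the count files. The longest transcripts of Rnaset2b and Rnaset2a are identical at 2435 of 2456 aligned positions (99.1%), and Rnaset2a had 0 reads in all 24 libraries. How the counting treated reads that match both copies is not given in the sources used here, so the counts of Rnaset2b are uncertain. Below are the promoters of the gene that differed most between genotypes, of the pair with a common start, and of Rnaset2b. Each is written 5′ to 3′ in the direction of transcription, from 250 bases before to 50 bases after the RefSeq start, with the transcribed bases in capitals.
Rnase12 (GRCm38.p6, chr14:51057193-51057492, minus strand): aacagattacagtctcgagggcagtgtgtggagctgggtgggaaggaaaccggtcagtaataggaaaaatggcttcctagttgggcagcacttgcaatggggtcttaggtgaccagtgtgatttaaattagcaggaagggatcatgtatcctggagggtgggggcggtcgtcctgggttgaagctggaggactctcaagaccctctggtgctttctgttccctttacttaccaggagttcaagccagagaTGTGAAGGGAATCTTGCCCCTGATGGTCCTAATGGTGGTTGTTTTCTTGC
Rnase4 and Ang (GRCm38.p6, chr14:51090827-51091126, plus strand): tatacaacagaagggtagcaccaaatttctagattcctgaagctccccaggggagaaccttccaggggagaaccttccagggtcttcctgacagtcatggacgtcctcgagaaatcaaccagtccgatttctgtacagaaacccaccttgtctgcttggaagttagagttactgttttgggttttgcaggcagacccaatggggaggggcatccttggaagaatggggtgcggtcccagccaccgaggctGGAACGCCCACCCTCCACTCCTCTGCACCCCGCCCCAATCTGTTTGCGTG
Rnaset2b (GRCm38.p6, chr17:6978610-6978909, plus strand): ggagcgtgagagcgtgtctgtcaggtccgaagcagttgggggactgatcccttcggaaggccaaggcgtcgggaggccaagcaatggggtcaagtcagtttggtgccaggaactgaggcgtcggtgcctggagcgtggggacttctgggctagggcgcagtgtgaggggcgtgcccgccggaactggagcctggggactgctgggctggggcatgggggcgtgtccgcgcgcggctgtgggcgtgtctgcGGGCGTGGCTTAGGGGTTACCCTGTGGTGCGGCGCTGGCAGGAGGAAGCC

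The GC content was 51.0% in the Rnase12 window, 54.7% in the window shared by Rnase4 and Ang and 68.3% in the Rnaset2b window, against a median of 52.7% over 32817 mouse windows of the same length. The 3 windows were searched on both strands for 6 short motifs of factors that act in lymphoid cells or below PLCγ, namely AP-1 (TGANTCA), NFAT (TGGAAA), FOXO (GTAAACA), PU.1 (GAGGAAG), the E-box of E2A (CAGGTG) and STAT (TTCNNNGAA). The Rnase12 window and the window of Rnase4 and Ang held none of them. RefSeq has another start of Rnase4, and its window (chr14:51095750-51096049) held none either. The Rnaset2b window held the PU.1 letters at position 42 of the transcript, and 13.6% of all windows held them. Windows of Rnase6 were searched as well. Those at chr14:51128814-51129113 and chr14:51128787-51129086, which overlap, held the PU.1 letters, and that at chr14:51123658-51123957 did not. A match is a description of letters and not of a bound site.

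CLP libraries held 4232345 to 33219995 reads on genes, with a median of 16744580, and B cell progenitor libraries 1479582 to 25057223, with a median of 7496844, so that 3 reads on a gene corresponded to 0.0903 to 0.709 and 0.120 to 2.03 counts per 1000000 counted reads (CPM), a limit for counting error only. Levels below are normalized CPM, scaled by edgeR's TMM factors over all 24 libraries, and are set out in the order of replicates 1, 2 and 3. Plcg2 had 183 to 282 CPM in the 12 Plcg2+/+ libraries and 72.1 to 138 CPM in the 12 Plcg2-/- libraries, without overlap. Plcg1 had 56.1 to 185 CPM in libraries labelled Plcg1-/- and 77.4 to 113 CPM in the others, so the counts, which sum over the whole gene, did not show the deletion, and the Plcg1 genotypes of these libraries rest on the labels. The study's western blot found neither PLCγ protein in YFP+ marrow cells of Plcg1-/-Plcg2-/- recipients. The sort described for these libraries names CD45.2 and not YFP. The Y-linked gene Ddx3y had 1.44 to 19.1 CPM in the 12 libraries labelled Plcg1-/- and 98.2 to 191 CPM in the other 12, so in the comparisons of Plcg1-/- cells with wild type the genotype and this difference in sex-linked RNA cannot be told apart. The 9 B-lineage markers summed to 885 to 5381 CPM in wild-type CLPs and 3374 to 4724 CPM in wild-type B cell progenitors, and over the 4 genotypes 0 of 9 were called between the populations by edgeR or DESeq2, or reached an unadjusted p of 0.05, so these markers did not set the labelled populations apart. Of 6 markers of CLPs, Flt3 had a log2 difference of -1.65 in B cell progenitors from CLPs (SE 0.47, adjusted p = 0.0123, edgeR) and Rag1 one of 0.68 (SE 0.25, adjusted p = 0.0476, edgeR).

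Rnase12 RNA was low in wild-type CLPs and was higher in CLPs of all 3 knockout genotypes, most in Plcg1-/-Plcg2-/-. The 3 wild-type CLP libraries had 0.724, 0.487 and 2.60 CPM, which are 10, 2 and 86 reads (1.27 ± 1.16, SD, n = 3). Plcg1-/-Plcg2+/+ CLPs had 7.63, 11.6 and 5.87 CPM (8.36 ± 2.93, SD, n = 3). Plcg1+/+Plcg2-/- CLPs had 7.75, 9.57 and 15.9 CPM (11.1 ± 4.25, SD, n = 3). All 6 single-knockout libraries lay above all 3 wild-type libraries, and the ranges of both single knockouts overlapped. In each of these comparisons with wild type, 3.17% of all genes were separated in this way. Plcg1-/-Plcg2-/- CLPs had 15.9, 36.6 and 40.5 CPM (31.0 ± 13.2, SD, n = 3). The lowest of these lay just above the highest Plcg1+/+Plcg2-/- library. All genes with the 3 Plcg1-/-Plcg2-/- libraries above the others came to 6.27% against wild type, 4.33% against Plcg1-/-Plcg2+/+ and 7.32% against Plcg1+/+Plcg2-/-. The ratio of means over wild type was 6.58 for Plcg1-/-Plcg2+/+, 8.69 for Plcg1+/+Plcg2-/- and 24.4 for Plcg1-/-Plcg2-/-, with fitted log2 fold changes of 2.49 (SE 0.56), 2.88 (SE 0.57) and 4.37 (SE 0.59).

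The order of genotypes was the same in B cell progenitors. Wild-type B cell progenitors had 1.18, 0.644 and 0.754 CPM of Rnase12, which are 12, 6 and 10 reads (0.860 ± 0.283, SD, n = 3). Plcg1-/-Plcg2+/+ B cell progenitors had 5.73, 5.45 and 6.33 CPM (5.84 ± 0.447, SD, n = 3). Plcg1+/+Plcg2-/- B cell progenitors had 6.78, 3.92 and 8.01 CPM (6.23 ± 2.10, SD, n = 3), and their range enclosed that of Plcg1-/-Plcg2+/+. Plcg1-/-Plcg2-/- B cell progenitors had 18.03, 17.8 and 27.3 CPM (21.04 ± 5.41, SD, n = 3). No library of these cells overlapped with any single-knockout library, and no single-knockout library overlapped with wild type. Of all genes, 9.03% had their 3 Plcg1-/-Plcg2-/- libraries above wild type, 6.31% above Plcg1-/-Plcg2+/+ and 5.77% above Plcg1+/+Plcg2-/-, and 8.03% and 4.45% had Plcg1-/-Plcg2+/+ and Plcg1+/+Plcg2-/- libraries above wild type. The ratios of means over wild type were 6.79, 7.25 and 24.5 in the order given, with log2 fold changes of 2.76 (SE 0.36), 2.76 (SE 0.37) and 4.59 (SE 0.36).

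**Figure D1:**
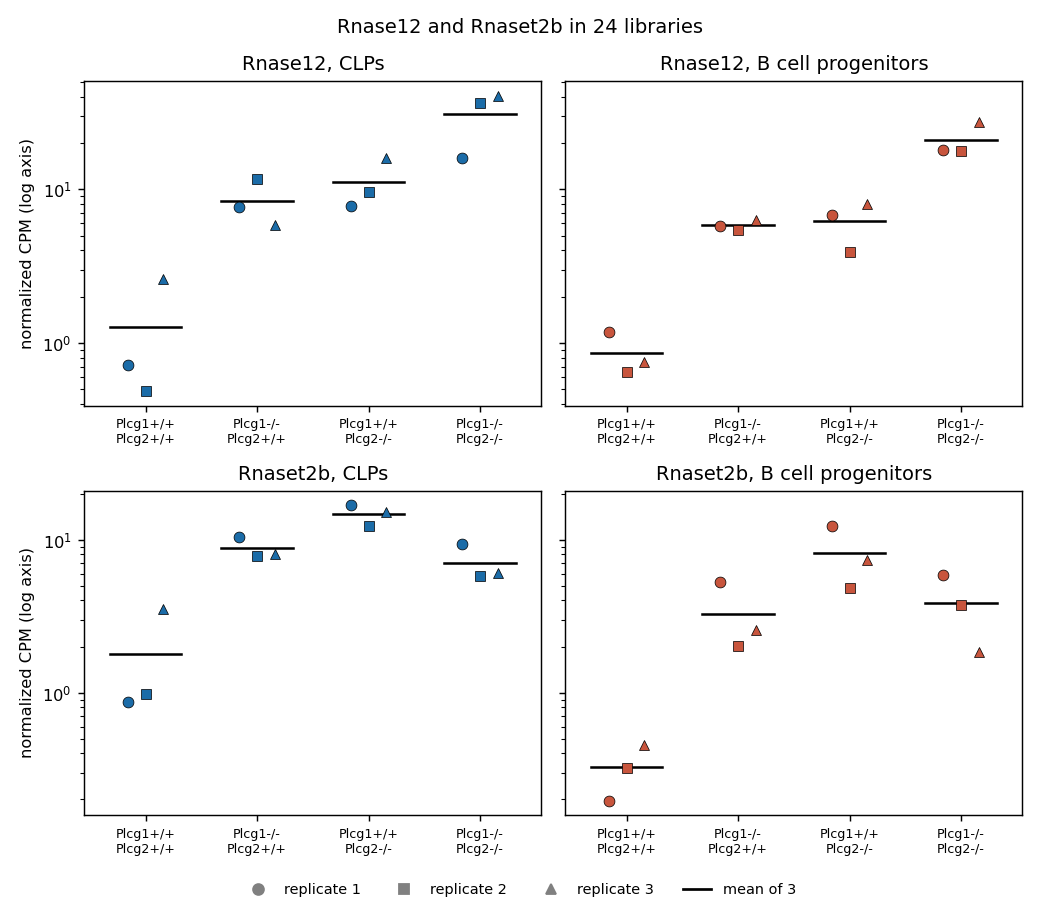
Normalized CPM (log axis) of Rnase12 (top) and Rnaset2b (bottom) in each library of CLPs (left) and B cell progenitors (right), by genotype. Symbols stand for replicates 1 to 3 and lines for the mean of 3. Rnase12 steps up from wild type over both single knockouts to Plcg1-/-Plcg2-/-, from 1.27 to 31.0 CPM in CLPs and from 0.860 to 21.04 CPM in B cell progenitors, whereas Rnaset2b is highest in Plcg1+/+Plcg2-/-.

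Cells without both enzymes held more Rnase12 RNA than cells without either enzyme alone. Plcg1-/-Plcg2-/- exceeded Plcg1-/-Plcg2+/+ by a ratio of means of 3.71 in CLPs and 3.60 in B cell progenitors, and exceeded Plcg1+/+Plcg2-/- by 2.80 and 3.37. On the log2 scale the double-knockout difference from wild type was smaller than the sum of both single-knockout differences, by 1.00 (SE 0.74) in CLPs and 0.92 (SE 0.47) in B cell progenitors. Without wild-type CLP replicate 3 the difference minus this sum was -2.16 in CLPs (SE 0.70). With the mean level of Y-linked genes as a covariate, the log2 difference of Plcg1-/-Plcg2-/- from Plcg1-/-Plcg2+/+ in CLPs was 0.72 (SE 0.50), against 1.88 (SE 0.52) without it. That from Plcg1+/+Plcg2-/- in CLPs was -1.9995 (SE 1.12), against 1.49 (SE 0.51), so its direction turned. These values were given no test, because the rule chose Rnase12 on the same libraries. A strict order, in which all 3 wild-type libraries lay below all 6 single-knockout libraries and these below all 3 Plcg1-/-Plcg2-/- libraries, was met by 4 of 15209 genes in CLPs (0.0263%) and by 3 of 15001 genes in B cell progenitors (0.0200%). Rnase12 was the only gene that met it in both populations. The gene was chosen for its rise in knockout cells of these same libraries, so nothing is read from this count or these shares.

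In the wild-type CLP library of replicate 3, Rnase12 and Rnaset2b lay above their levels in replicates 1 and 2, and Xist, the RNA of the inactive X chromosome, was also higher there, at 342 CPM against 81.0 and 23.6 CPM. Among Plcg1+/+Plcg2-/- CLPs the library of replicate 3 was likewise highest for Rnase12, at 15.9 CPM, and for Xist, at 743 CPM. Rnaset2b did not follow there, with 16.8 CPM in replicate 1 and 15.2 CPM in replicate 3. Whether these libraries held RNA of other cells was not tested. Without wild-type replicate 3 the Rnase12 log2 fold changes in CLPs were 3.66, 4.04 and 5.55 for Plcg1-/-Plcg2+/+, Plcg1+/+Plcg2-/- and Plcg1-/-Plcg2-/-. Ddx3y had 98.2 to 171 CPM in the Plcg1+/+Plcg2-/- libraries and 109 to 191 CPM in wild type. The part of sex-linked RNA in the level of Rnase12 was not tested. Ddx3y separated the Plcg1-/- libraries from all others, so a covariate of Y-linked RNA cannot be told apart from the Plcg1 genotype. With the mean level of Y-linked genes as a covariate, the Rnase12 log2 fold change of Plcg1+/+Plcg2-/- was 2.98 (SE 0.42) in CLPs and 2.78 (SE 0.36) in B cell progenitors. That of Plcg1-/-Plcg2-/- was 0.98 (SE 1.05) in CLPs and 6.15 (SE 1.23) in B cell progenitors, and that of Plcg1-/-Plcg2+/+ was 0.26 (SE 0.75) and 4.17 (SE 1.14), so the values of the genotypes without Plcg1 moved by over 1 in opposite directions in the populations.

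Rnaset2b RNA was higher in all 3 knockout genotypes too, but was highest in Plcg1+/+Plcg2-/-. Wild-type CLPs had 0.868, 0.975 and 3.51 CPM, from 12, 4 and 116 reads (1.79 ± 1.497, SD, n = 3). Plcg1-/-Plcg2+/+ CLPs had 10.5, 7.88 and 8.02 CPM (8.78 ± 1.45, SD, n = 3). Plcg1+/+Plcg2-/- CLPs had 16.8, 12.4 and 15.2 CPM (14.8 ± 2.23, SD, n = 3). Plcg1-/-Plcg2-/- CLPs had 9.35, 5.80 and 6.07 CPM (7.07 ± 1.98, SD, n = 3). Every knockout library lay above every wild-type library. Of all genes, 3.17%, 3.17% and 6.27% had their Plcg1-/-Plcg2+/+, Plcg1+/+Plcg2-/- and Plcg1-/-Plcg2-/- libraries above wild type. All 3 Plcg1-/-Plcg2-/- libraries lay below all 3 Plcg1+/+Plcg2-/- libraries, as those of 7.04% of all genes did. The ratios of means over wild type were 4.92, 8.28 and 3.96 for Plcg1-/-Plcg2+/+, Plcg1+/+Plcg2-/- and Plcg1-/-Plcg2-/- CLPs. Without wild-type replicate 3 the log2 fold changes in CLPs were 3.26, 4.004 and 2.95 in this order, against 2.17, 2.92 and 1.85 with it.

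In wild-type B cell progenitors Rnaset2b was at the limit of detection, with 0.197, 0.322 and 0.453 CPM from 2, 3 and 6 reads (0.324 ± 0.128, SD, n = 3). Plcg1-/-Plcg2+/+ B cell progenitors had 5.25, 2.03 and 2.56 CPM (3.28 ± 1.73, SD, n = 3). Plcg1+/+Plcg2-/- B cell progenitors had 12.4, 4.82 and 7.34 CPM (8.17 ± 3.84, SD, n = 3). Plcg1-/-Plcg2-/- B cell progenitors had 5.90, 3.73 and 1.85 CPM (3.83 ± 2.02, SD, n = 3). All 9 knockout libraries lay above all 3 wild-type libraries, and the ranges of the 3 knockout genotypes overlapped each other. Of all genes, 8.03%, 4.45% and 9.03% had their Plcg1-/-Plcg2+/+, Plcg1+/+Plcg2-/- and Plcg1-/-Plcg2-/- libraries above wild type. The log2 fold changes were 3.28 (SE 0.64), 4.57 (SE 0.66) and 3.45 (SE 0.64), and those in CLPs were 2.17 (SE 0.46), 2.92 (SE 0.47) and 1.85 (SE 0.46). With the covariate for Y-linked genes the log2 fold change of Plcg1-/-Plcg2-/- was 2.42 (SE 1.20) in CLPs and 1.97 (SE 2.77) in B cell progenitors, and that of Plcg1+/+Plcg2-/- was 2.89 (SE 0.49) and 4.57 (SE 0.69). The double-knockout difference was below the sum of the single-knockout differences by 3.23 (SE 0.63) in CLPs and by 4.40 (SE 0.85) in B cell progenitors on the log2 scale. Without wild-type CLP replicate 3 the difference minus this sum was -4.31 in CLPs (SE 0.46).

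A gene was called where its adjusted p was 0.05 or less and its log2 fold change was 0.5 or more in either direction, and Rnase12 and Rnaset2b supplied every call among the 5 genes. In Plcg1-/-Plcg2-/- CLPs 1 of 5 was called higher (Rnase12), where 0.0395% of all genes tested were, and in Plcg1-/-Plcg2-/- B cell progenitors 2 of 5 were, where 0.220% of all genes were. In Plcg1+/+Plcg2-/- B cell progenitors both were called, against 0.0333% of all genes, and in Plcg1-/-Plcg2+/+ B cell progenitors Rnase12 alone was called, also against 0.0333%. In CLPs of the single knockouts 0 of 5 were called in either direction, where 0.00658% of all genes were in Plcg1-/-Plcg2+/+ and 0% in Plcg1+/+Plcg2-/-. The unadjusted p was at most 0.05 for 2.85% and 3.92% of all genes in these comparisons, and DESeq2 called 2 of 5 in each. The count in Plcg1-/-Plcg2-/- CLPs was 0 without wild-type replicate 2 and without Plcg1-/-Plcg2-/- replicate 2 or 3, and 2 without wild-type replicate 3. In B cell progenitors the count was 1 in Plcg1-/-Plcg2-/- without replicate 1 or 2 of these cells or any wild-type library, 0 in Plcg1+/+Plcg2-/- without its replicate 1 or 3 or any wild-type library, and 0 in Plcg1-/-Plcg2+/+ without its replicate 1 or 3 or wild-type replicate 2 or 3. These counts describe genes chosen for this contrast, and nothing is read from them.

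**Figure D2:**
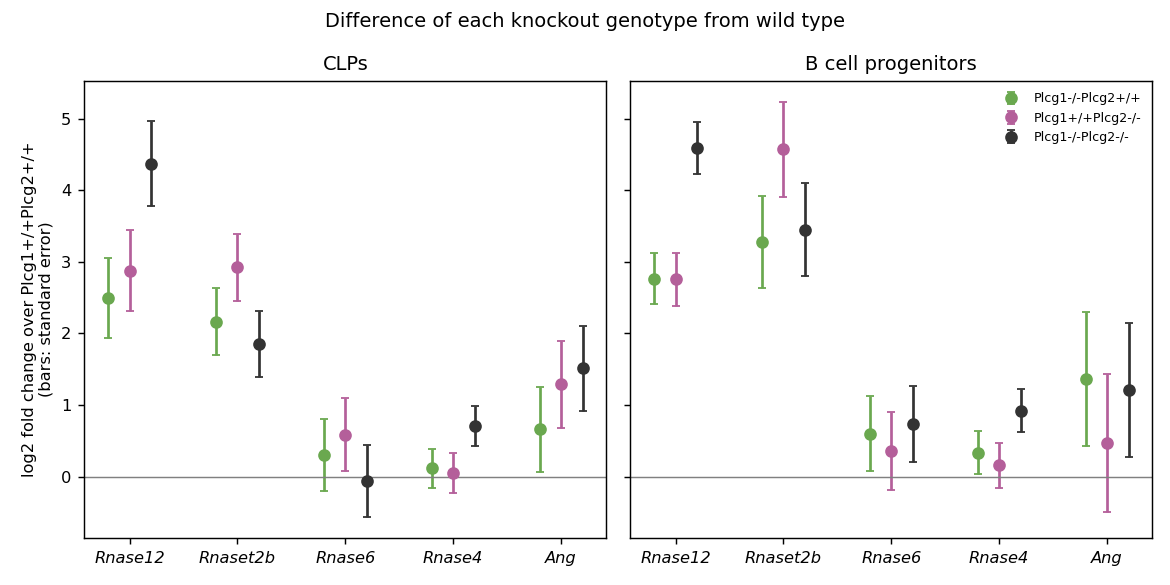
Log2 fold change of each knockout genotype over Plcg1+/+Plcg2+/+ for the 5 genes (y axis, with standard errors as bars) in CLPs (left) and B cell progenitors (right). Rnase12 and Rnaset2b lie between 1.85 and 4.59, and Rnase6, Rnase4 and Ang between -0.06 and 1.51.

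Rnase6, whose product is an antimicrobial ribonuclease of myeloid cells, was not called in any knockout comparison. Wild-type CLPs had 60.3, 16.1 and 51.2 CPM (42.5 ± 23.4, SD, n = 3), and Plcg1-/-Plcg2-/- CLPs had 73.9, 25.1 and 25.4 CPM (41.4 ± 28.1, SD, n = 3). The log2 fold change was -0.06 (SE 0.51, adjusted p = 0.984 from the quasi-likelihood test of edgeR). Wild-type B cell progenitors had 40.7, 18.9 and 30.4 CPM (30.0 ± 10.9, SD, n = 3), and Plcg1-/-Plcg2-/- B cell progenitors had 80.0, 19.99 and 53.1 CPM (51.0 ± 30.0, SD, n = 3). The log2 fold change there was 0.73 (SE 0.53, adjusted p = 0.584 from the same edgeR test). In the single knockouts Rnase6 ranged from 40.1 to 82.1 CPM in CLPs and from 18.3 to 64.2 CPM in B cell progenitors, with log2 fold changes of 0.30 to 0.60 and adjusted p-values of 0.565 to 1.00.

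The spread of Rnase6 followed the replicate number. The library of replicate 2 was the lowest in 8 of 8 groups and that of replicate 1 was the highest in 7 of 8. Of 17212 genes, 140 (0.813%) were lowest in replicate 2 in all 8 groups, and 405 (2.35%) were lowest in any single number in all 8. The summed level of the 12 macrophage markers was lowest in replicate 2 in 7 of 8 groups, as was that of 8 neutrophil markers, and the sum of 11 genes for endolysosomal nucleases and sensors of RNA was lowest there in 8 of 8. Other lists differed in replicate 2 too. The sum of the CLP markers was highest there in 7 of 8 groups and that of the B-lineage markers in 5 of 8. Rnh1, the gene of a ribonuclease inhibitor, was lowest there in 6 of 8. The macrophage sums ranged from 83.0 to 401 CPM and the neutrophil sums from 1311 to 8120 CPM over the 24 libraries. The labels do not say what the replicate number stands for, and the part of these cells in the level of Rnase6 was not tested. In sorted bulk cells, fewer cells of a type and less RNA per cell cannot be told apart.

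Rnase4 had a higher mean in Plcg1-/-Plcg2-/- cells than in wild type in both populations, but neither difference passed the test. Wild-type CLPs had 16.7, 8.53 and 9.15 CPM (11.5 ± 4.56, SD, n = 3), and Plcg1-/-Plcg2-/- CLPs had 15.98, 24.01 and 17.2 CPM (19.1 ± 4.34, SD, n = 3), so that 1 wild-type library lay within the knockout range. The log2 fold change was 0.70 (SE 0.28, adjusted p = 0.587, edgeR). Wild-type B cell progenitors had 11.9, 7.20 and 10.3 CPM (9.79 ± 2.39, SD, n = 3), all below the 19.01, 22.7 and 14.04 CPM of Plcg1-/-Plcg2-/- cells (18.6 ± 4.35, SD, n = 3). The log2 fold change was 0.92 (SE 0.30, adjusted p = 0.218, edgeR), and 9.03% of all genes had all 3 Plcg1-/-Plcg2-/- libraries above all 3 wild-type libraries in this comparison. The single knockouts lay between 7.84 and 15.9 CPM in both populations, with log2 fold changes of 0.05 to 0.34 over wild type.

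Ang, the gene of angiogenin, had few reads in every group. Wild-type CLPs had 0.796, 0.731 and 0.636 CPM from 11, 3 and 21 reads (0.721 ± 0.0804, SD, n = 3), and all 3 Plcg1-/-Plcg2-/- CLP libraries lay above them with 1.38, 3.04 and 1.86 CPM from 29, 34 and 45 reads (2.09 ± 0.851, SD, n = 3). The log2 fold change was 1.51 (SE 0.59, adjusted p = 0.579, edgeR), and 6.27% of all genes were separated in this way. In B cell progenitors the wild-type libraries had 0.885, 0.107 and 0.603 CPM and the Plcg1-/-Plcg2-/- libraries 1.31, 1.89 and 0.530 CPM, with overlap. Of the 12 B cell progenitor libraries, 7 had fewer than 8 reads on Ang, and 1 Plcg1+/+Plcg2-/- library had 0 reads, and the log2 fold change was 1.21 (SE 0.93, adjusted p = 0.610, edgeR). Of the single knockouts, Plcg1+/+Plcg2-/- CLPs had 1.67, 0.979 and 2.86 CPM, all above wild type, as 3.17% of all genes were. Their log2 fold change was 1.29 (SE 0.60, adjusted p = 0.939, edgeR). Plcg1-/-Plcg2+/+ CLPs had 0.781, 0.644 and 2.05 CPM, which overlapped with wild type. In B cell progenitors Plcg1-/-Plcg2+/+ had 0.637, 2.28 and 1.20 CPM, with a log2 fold change of 1.36 (SE 0.93, adjusted p = 0.493, edgeR), and Plcg1+/+Plcg2-/- had 0.399, 1.27 and 0 CPM, with one of 0.47 (SE 0.96, adjusted p = 0.940, edgeR).

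**Figure D3:**
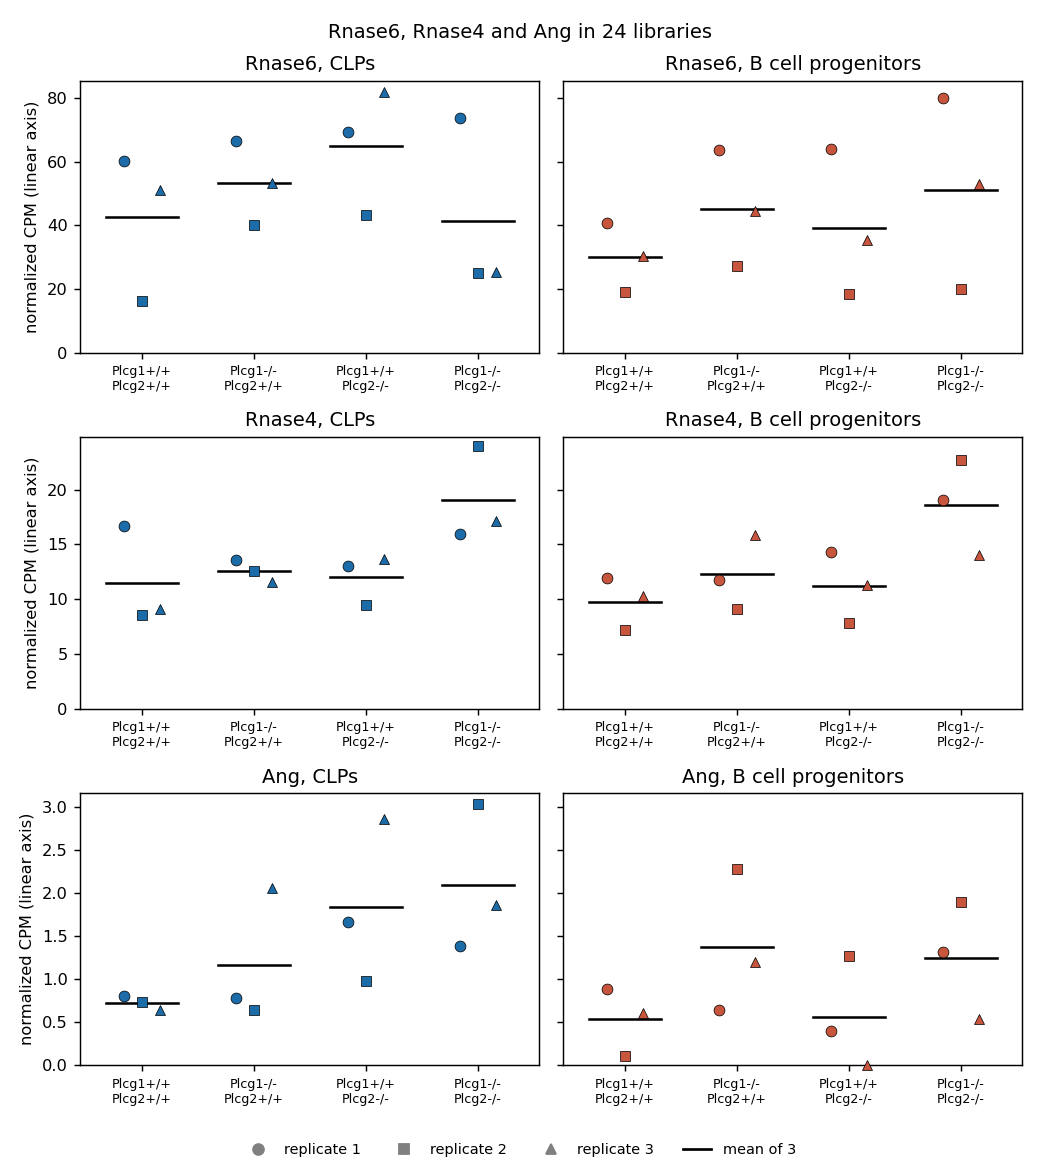
Normalized CPM (linear axes) of Rnase6, Rnase4 and Ang in each library of CLPs (left) and B cell progenitors (right), by genotype. Symbols stand for replicates 1 to 3 and lines for the mean of 3. Replicate 2 is the lowest Rnase6 library in all 8 groups, and the Rnase4 libraries of Plcg1-/-Plcg2-/- reach 24.01 CPM in CLPs and 22.7 CPM in B cell progenitors.

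The comparison of both populations did not enter the choice of the genes and was tested for all 5. Rnaset2b was lower in B cell progenitors than in CLPs. Over the 4 genotypes its log2 difference was -1.45 (SE 0.26, adjusted p = 3.71e-04, edgeR), and it was lower in the B cell progenitors of 12 of 12 mice, at 0.129 to 0.737 of the CLP level (median 0.360). The share of all genes that were lower in 12 of 12 mice was not counted. In wild-type cells alone the log2 difference was -2.52 (SE 0.60, adjusted p = 0.0178, edgeR). This call was lost without wild-type CLP replicate 3 (-1.43, adjusted p = 0.345) and without any of the 3 wild-type B cell progenitor libraries (adjusted p = 0.140, 0.111 and 0.0615 without replicates 1, 2 and 3).

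Rnase12 was also lower in B cell progenitors over the 4 genotypes, by 0.69 on the log2 scale (SE 0.23, adjusted p = 0.0305, edgeR). It was lower in the B cell progenitors of 8 of 12 mice, with ratios of 0.290 to 1.63 (median 0.713). The call was lost without wild-type CLP replicate 3 (-0.45, adjusted p = 0.129) and without Plcg1+/+Plcg2-/- B cell progenitor replicate 2 (-0.65, adjusted p = 0.0533). Of all genes, 5.98% were called lower in B cell progenitors over the 4 genotypes, and 0.354% in wild-type cells. Rnase6, Rnase4 and Ang did not pass the test, with log2 differences of -0.31 (SE 0.28, adjusted p = 0.406, edgeR), -0.11 (SE 0.15, adjusted p = 0.595) and -0.51 (SE 0.38, adjusted p = 0.317). Beside these differences, 5 of 6 markers of plasmacytoid dendritic cells were lower in B cell progenitors. Among 6 markers of eosinophils and basophils, Mcpt8, Cpa3 and Fcer1a were lower, and Epx, Prg2 and Il5ra were not called. Of 12 macrophage markers, C1qa, Cd68 and Cd163 were lower and Marco was higher, and of 7 markers of T and NK cells Ncr1 was lower. The macrophage markers summed to 145 to 401 CPM in CLPs and 83.0 to 322 CPM in B cell progenitors. Reads outside genes made up 17.9% to 45.2% of the CLP libraries and 59.9% to 87.3% of the B cell progenitor libraries, without overlap. The summed level of the plasmacytoid list ranged from 634 to 2170 CPM in CLPs and from 563 to 1258 CPM in B cell progenitors, that of the eosinophil and basophil list from 413 to 3458 and from 389 to 3549 CPM, and the part of such cells and of the reads outside genes in the levels of Rnaset2b and Rnase12 was not tested.

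**Figure D4:**
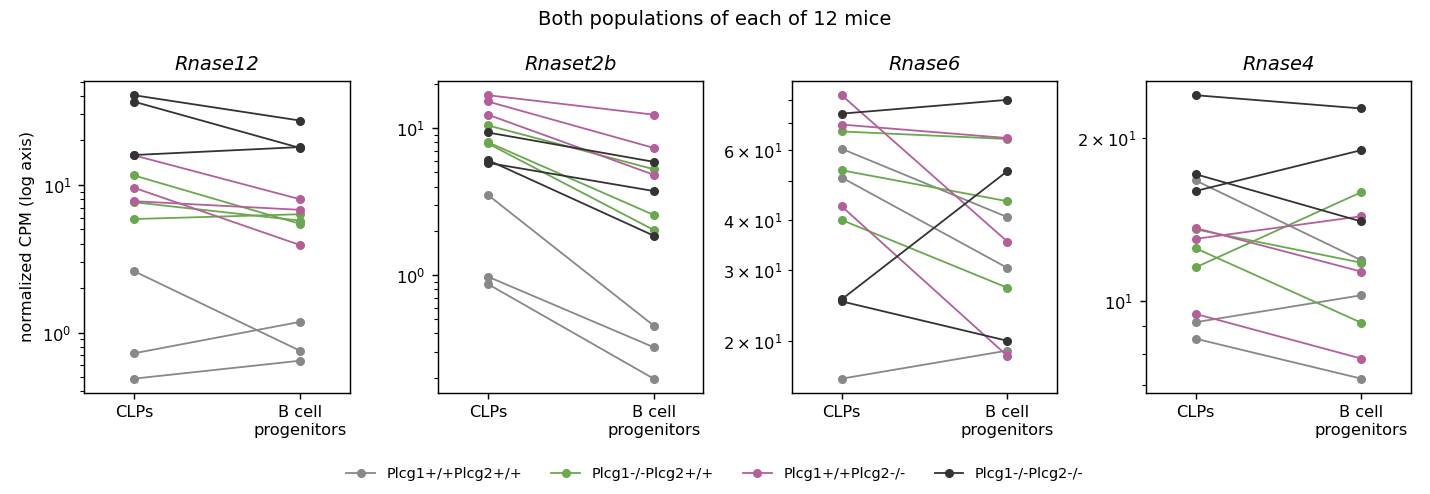
Normalized CPM (log axis) of Rnase12, Rnaset2b, Rnase6 and Rnase4 in the CLPs and B cell progenitors of each of 12 mice, joined by a line and coloured by genotype. Lines for Rnaset2b fall in 12 of 12 mice, and lines for Rnase12 in 8 of 12.

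No difference between the populations in the effect of a knockout passed the test for Rnase6, Rnase4 or Ang. For Rnase12 and Rnaset2b this difference is a description with no p-value, because it is built from the genotype differences behind their choice. The Rnase12 effect of losing both enzymes was larger in B cell progenitors by 0.23 on the log2 scale (SE 0.66), a small value beside its error. The Rnaset2b effect was larger in B cell progenitors by 1.58 (SE 0.78) in Plcg1-/-Plcg2-/- and by 1.63 (SE 0.78) in Plcg1+/+Plcg2-/-. Wild-type B cell progenitors had only 2, 3 and 6 reads of Rnaset2b. Across all 17212 genes 0 (0%) were called in these contrasts, and 3.48%, 0.901% and 1.37% reached an unadjusted p of 0.05 or less for Plcg1-/-Plcg2+/+, Plcg1+/+Plcg2-/- and Plcg1-/-Plcg2-/-.

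Levels of the genes can be set side by side per length of exon. In wild-type CLPs the order per kb was Rnase6 at 15.9 ± 8.76, Rnase4 at 7.003 ± 2.78, Rnase12 at 1.89 ± 1.72, Ang at 0.600 ± 0.0669 and Rnaset2b at 0.401 ± 0.336 CPM per kb (SD, n = 3). The ranges of Rnase6 and Rnase4 overlapped, and that of Rnaset2b overlapped with those of Ang and Rnase12. With the length of the longest transcript in place of all exons, Rnaset2b had 0.729 and Ang 0.659 CPM per kb, so the order of these genes turned. In Plcg1-/-Plcg2-/- CLPs Rnase12 led with 46.1 ± 19.6 CPM per kb, followed by Rnase6 with 15.5 ± 10.5 and Rnase4 with 11.6 ± 2.65. Their ranges were 23.7 to 60.2, 9.41 to 27.7 and 9.76 to 14.7 CPM per kb, so the lowest Rnase12 library lay below the highest Rnase6 library. Rnase12 was divided by 673 bases of GENCODE exons, but the RefSeq gene on which reads were counted spans 545 bases. A shorter length raises the Rnase12 levels per kb, so this overlap may depend on the length used. In B cell progenitors the level of Rnase12 per kb went from 1.28 ± 0.421 in wild type to 31.3 ± 8.04 in Plcg1-/-Plcg2-/-, beside 11.3 ± 4.09 and 19.1 ± 11.3 for Rnase6.

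Most other genes of the RNase A family had few reads. Of 21 genes of the family, 9 passed the filter on low counts in each population. Rnase12 was the only one called in any comparison with wild type, a call from which nothing is read. Ear1, a gene for an eosinophil-associated ribonuclease, had 15.8 to 336 CPM (median 54.5), not scaled for length, and Ear14, Ang3 and Ang5 had 0 reads in all 24 libraries. Rnaset2a and the 4 globin genes, which have close copies, were also at 0 in all 24, so a 0 for a gene with a close copy is not read as absence. The median log2 fold change of the 9 genes, Rnase12 among them, in Plcg1-/-Plcg2+/+, Plcg1+/+Plcg2-/- and Plcg1-/-Plcg2-/- was 0.66, 1.29 and 0.52 in CLPs and 1.14, 1.66 and 0.84 in B cell progenitors. The median of all genes was -0.01, 0.01 and -0.03 in CLPs and 0.06, 0.03 and -0.02 in B cell progenitors. In single-knockout CLPs the medians of the 9 genes were the values of Ang, which had few reads. The summed level of the 21 genes in Plcg1+/+Plcg2-/- B cell progenitors was 527.5, 64.97 and 132.8 CPM in replicates 1, 2 and 3. No rise of the family is read from these medians. Rnh1, the cytosolic inhibitor of these enzymes, had 75.5 to 157 CPM and differed from wild type by 0.16 to 0.30 on the log2 scale without a call.

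Genes of RNA breakdown inside cells did not pass the test in any knockout genotype. None of 11 genes for endolysosomal nucleases and sensors of RNA, such as the exonuclease genes Pld3 and Pld4 and the receptor genes Tlr7 and Tlr13, was called by edgeR, and none of 22 genes for intracellular ribonucleases was. DESeq2 called none of either list. An unadjusted p of at most 0.05 was reached by 1 of 11 in Plcg1-/-Plcg2+/+ B cell progenitors, and by 2 of 22 in Plcg1-/-Plcg2-/- and 1 of 22 in Plcg1-/-Plcg2+/+ B cell progenitors, and by 0 in the other comparisons. Between the populations Pld3 was lower in B cell progenitors by 1.19 (SE 0.23, adjusted p = 5.85e-04, edgeR), as was Sidt2, a lysosomal RNA transporter, by 0.51 (SE 0.11, adjusted p = 0.00209). The neutrophil markers summed to 2170 to 3492 CPM in wild-type CLPs and to 3414 to 7501 CPM in Plcg1-/-Plcg2-/- CLPs, and to 1325 to 4266 and 2648 to 6310 CPM in B cell progenitors, with 0 of 8 called by edgeR or DESeq2 and 2 of 8 at an unadjusted p of at most 0.05 in both populations (median log2 fold changes of 1.28 and 1.45). The macrophage markers summed to 145 to 254 and 195 to 401 CPM in these CLPs and to 83.0 to 256 and 136 to 322 CPM in B cell progenitors. None of these was called by edgeR, DESeq2 called C1qa in B cell progenitors, and the unadjusted p was at most 0.05 for 1 of 11 in CLPs and 2 of 12 in B cell progenitors. In Plcg1-/-Plcg2-/- B cell progenitors DESeq2 also called Bst2 of the plasmacytoid list and Klrb1c of the T and NK list, and edgeR called neither. The part of neutrophils, macrophages and these other cells in the levels of the 5 genes was not tested.

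No gene around Rnase12 was called by edgeR. Within 300 kb of it 14 genes passed the filter, Rnase4, Ang and Rnase6 among them, and 0 of 14 were called in any comparison of a knockout with wild type in either population. An unadjusted p of at most 0.05 was reached by 4 of 14 in Plcg1-/-Plcg2-/- CLPs, by 5 of 14 in Plcg1-/-Plcg2-/- B cell progenitors and by 1 of 14 in each comparison of a single knockout. Of all genes, 7.52%, 2.85% and 3.92% did so in Plcg1-/-Plcg2-/-, Plcg1-/-Plcg2+/+ and Plcg1+/+Plcg2-/- CLPs and 12.3%, 9.93% and 2.84% in the B cell progenitors, and the counts at an unadjusted p given above for other gene lists stand beside the same shares. DESeq2 called Tep1 in Plcg1-/-Plcg2-/- CLPs, Rpph1 and Pnp in Plcg1-/-Plcg2-/- B cell progenitors and none in the single knockouts. Their log2 fold changes in Plcg1-/-Plcg2-/- ranged from -0.59 to 1.51 in CLPs (median 0.28) and from -0.69 to 1.82 in B cell progenitors (median 0.68), against 4.37 and 4.59 for Rnase12. The nearest gene, Rnase11, lies 996 bases away and had 109 reads in all 24 libraries together. Within 300 kb of Rnaset2b 5 genes passed the filter and 0 of 5 were called by edgeR, with an unadjusted p of at most 0.05 for 1 of 5 in Plcg1-/-Plcg2-/- B cell progenitors, for 2 of 5 in Plcg1+/+Plcg2-/- B cell progenitors and for 0 of 5 elsewhere. DESeq2 called Tagap1 in Plcg1+/+Plcg2-/- B cell progenitors. In Plcg1-/-Plcg2-/- the 5 genes had log2 fold changes of -0.03 to 1.16 in CLPs and -0.16 to 0.82 in B cell progenitors.

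**Figure D5:**
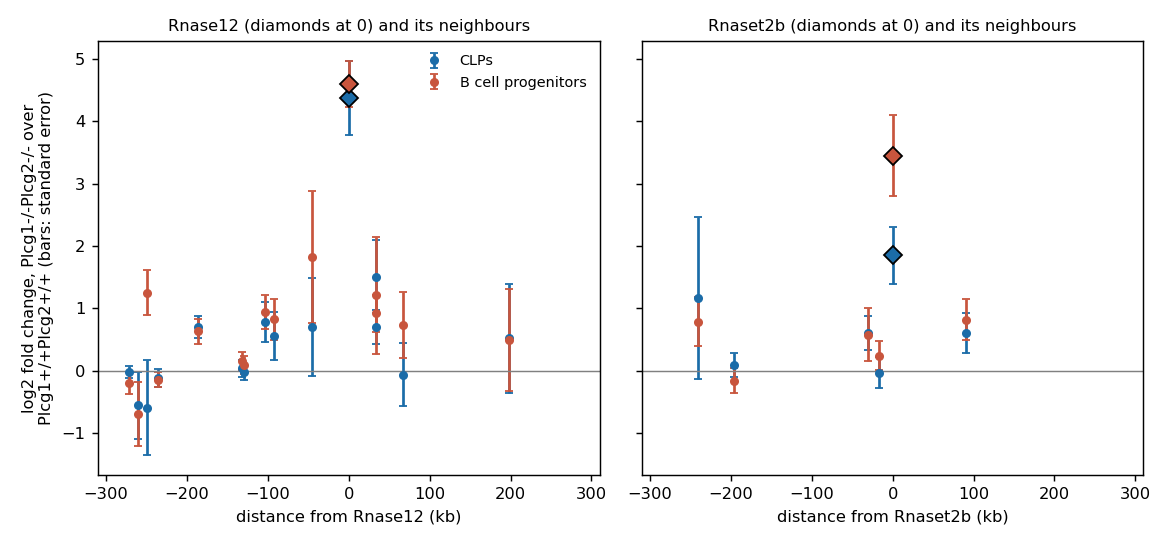
Log2 fold change of Plcg1-/-Plcg2-/- over Plcg1+/+Plcg2+/+ (y axis, with standard errors as bars) of genes within 300 kb of Rnase12 (left) and Rnaset2b (right), by distance from the gene in kb, in CLPs and B cell progenitors. The diamonds at 0 are Rnase12 (4.37 and 4.59) and Rnaset2b (1.85 and 3.45), and the highest neighbour lies at 1.82.

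The genes whose pattern was most like that of Rnase12 were ranked by the mean of Pearson's r within the 12 CLP and the 12 B cell progenitor libraries on log2 CPM, among 14172 genes. The 12 libraries of a population fall into 4 genotypes, so r describes these libraries. The first 10 were Gsap (0.84), Synj2 (0.83), A930015D03Rik (0.83), Rsph3a (0.83), Pign (0.82), Klf8 (0.82), Usp18 (0.82), H2-T10 (0.81), H2-T24 (0.81) and Trim30a (0.80). Synj2, which encodes an inositol phosphatase, had 12.1 ± 5.999 CPM in wild-type and 35.4 ± 8.35 CPM in Plcg1-/-Plcg2-/- CLPs (SD, n = 3). Usp18, an interferon-induced protease gene, had 9.82 ± 3.02 and 18.5 ± 2.15 CPM in these cells. Of the 10 genes, 5 lie on chromosome 17, which carries 4.90% of the genes of the count files, and none lies on chromosome 14 with Rnase12; this was looked at after the genes were seen. Rnaset2b, itself on chromosome 17, ranked at 31 (0.73), Rnase4 at 154 (0.63), Ang at 1060 (0.45) and Rnase6 at 3473 (0.25).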

How the data were processed

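Poly(A) RNA of sorted CLPs and B cell progenitors was sequenced from 12 mice, 24 libraries in all. Per the labels and the study's methods, the authors aligned reads with STAR 2.5.0a to mm10 (RefSeq genes) and deposited raw read counts per gene for each library. The counting program is not given in the sources used here, and the library kit does not mark strand. Reads outside genes (17.9% to 45.2% of each CLP library and 59.9% to 87.3% of each B cell progenitor library) and ambiguous reads (0.110% to 1.44%) were left out.

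The tests used edgeR 4.0.16 (R 4.3.3) on the counts, with TMM factors, filterByExpr, the quasi-likelihood F-test and Benjamini-Hochberg adjustment over all genes tested. Each SE of an edgeR value is the size of the log2 fold change divided by the square root of its F statistic. It is an approximation and was not taken from the fit. The 12 libraries of a population entered one fit for genotypes (15209 genes in CLPs, 15001 in B cell progenitors), and all 24 entered one fit for the difference between populations and for interactions (17212 genes). The call required an adjusted p no higher than 0.05 and a log2 fold change of 0.5 or more in size. The fits were tested on simulated data. Levels are normalized CPM, and log2 CPM for correlations used a prior count of 2. Replicates are given as the number in the sample names. The members and gene lists were chosen with earlier results of these data known. Named are the members, the counts, called genes and extremes of each list, genes within 300 kb of Rnase12 and Rnaset2b, Plcg1 and Plcg2, and the 10 genes most like Rnase12. Promoter sequences and starts came from RefSeq (GRCm38.p6), and exons from GENCODE. Alternatives were RLE size factors, no filter, DESeq2 1.42.0, the groups of a comparison alone, a replicate block, a Y-linked covariate, transcript length and each library left out. The sample names pair the libraries of each mouse, and deviations from the group means in the CLP and the B cell progenitor library of a mouse had a mean correlation across genes of 0.114 (-0.350 to 0.530), over 0.1 in 7 of 12 mice. In some mice the highest correlation with another mouse of the genotype was larger, as in Plcg1-/-Plcg2+/+ replicate 3 (0.464 against -0.0727). In others it was smaller, as in Plcg1+/+Plcg2-/- replicate 1 (-0.285 against 0.530). The pairing of mice therefore rests on the names.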

Additional observations from a re-analysis of the deposited data

How the results depend on the processing

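The number of the 5 genes called, against 1, 0 and 0 in Plcg1-/-Plcg2-/-, Plcg1-/-Plcg2+/+ and Plcg1+/+Plcg2-/- CLPs and 2, 1 and 2 in the B cell progenitors, was 2 in every CLP comparison and 2, 2 and 2 in B cell progenitors with DESeq2. With the Y-linked covariate it was 0 in Plcg1-/-Plcg2-/- CLPs and 0, 0 and 1 in B cell progenitors, and with the groups of the comparison alone 0 in Plcg1-/-Plcg2-/- CLPs and 0 in B cell progenitors of both single knockouts. Leaving out a library gave 0 to 2, 0 to 1 and 0 to 1 in CLPs, 1 to 2, 0 to 1 and 0 to 2 in B cell progenitors, 0 to 1 for the populations in wild type and 1 to 2 over the 4 genotypes. The Rnase12 log2 fold change in Plcg1-/-Plcg2-/- was 0.98 (SE 1.05) in CLPs and 6.15 (SE 1.23) in B cell progenitors with the Y-linked covariate, and 4.01 to 5.55 and 4.36 to 4.88 with a library left out. With this covariate the Rnase12 level of Plcg1-/-Plcg2-/- differed from Plcg1-/-Plcg2+/+ by 0.72 and from Plcg1+/+Plcg2-/- by -1.9995 in CLPs (1.88 and 1.49 without it), and from Plcg1+/+Plcg2-/- by 3.37 in B cell progenitors (1.84). Its departure in CLPs from the sum of the single knockouts (-0.996) was -2.26 with the covariate and -2.16 to -0.62 with a library left out. Rnaset2b of Plcg1-/-Plcg2-/- against Plcg1-/-Plcg2+/+ B cell progenitors (0.17) was -0.028 with the covariate and -0.21 to 0.76 with a library left out. None of the sign changes that follow concerns a called difference. With the Y-linked covariate Rnase6 was 2.35 in Plcg1-/-Plcg2-/- CLPs, Rnase4 was -0.057 in Plcg1-/-Plcg2+/+ CLPs, -0.31 in Plcg1-/-Plcg2-/- and -0.74 in Plcg1-/-Plcg2+/+ B cell progenitors, and Ang was -2.25 and -1.59 in these B cell progenitors. With a library left out, Rnase6 lay between -0.79 and 0.26 in Plcg1-/-Plcg2-/- CLPs, between -0.058 and 0.61 in Plcg1-/-Plcg2+/+ CLPs and between -0.28 and 0.75 in Plcg1+/+Plcg2-/- B cell progenitors. Rnase4 ranged from -0.042 to 0.48 and -0.11 to 0.41 in single-knockout CLPs, from -0.12 to 0.41 in Plcg1+/+Plcg2-/- B cell progenitors and from -0.42 to 0.16 between wild-type populations. Ang ranged from -0.035 to 0.96 in Plcg1-/-Plcg2+/+ CLPs, -1.13 to 0.97 in Plcg1+/+Plcg2-/- B cell progenitors and from -0.91 to 0.020 between wild-type populations, where Rnase12 ranged from -1.11 to 0.38. The cause was not tested.

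With the replicate number as a block, Ang was -0.0072 in Plcg1+/+Plcg2-/- B cell progenitors, Rnase12 was 4.398 (SE 0.48) in CLPs and 4.61 (SE 0.32) in B cell progenitors of Plcg1-/-Plcg2-/-, and no call of the 5 genes changed. Deviations of libraries with the same number had a mean correlation of 0.231 (-0.233 to 0.666) in CLPs and 0.0845 (-0.530 to 0.706) in B cell progenitors. Those of libraries with different numbers had one of -0.115 (-0.527 to 0.489) and -0.0429 (-0.714 to 0.686). The means were higher for the same number, but the ranges overlapped. The numbers were not taken as pairs in the main fits, whose error therefore holds any spread that follows the number. With the mouse as a block Rnaset2b was lower in B cell progenitors by 1.46 over the 4 genotypes, and no call changed.

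Over all genes the calls in Plcg1-/-Plcg2-/- were 14 in CLPs and 134 in B cell progenitors, against 171 and 438 with DESeq2, 50 and 550 with the block, 0 and 0 with the Y-linked covariate, and 0 and 238 with the groups alone. In Plcg1-/-Plcg2+/+ they were 1 and 9, against 15 and 29 with DESeq2, 0 and 0 with the covariate, and 0 and 6 with the groups alone. In Plcg1+/+Plcg2-/- they were 0 and 7, against 11 and 17 with DESeq2, and in B cell progenitors 0 with the groups alone.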
